A study of Mus musculus with 18 samples.

Results

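The liver transcriptome of HF+CR mice, which were kept on a high-fat diet under calorie restriction, was compared with that of LF mice, which ate a low-fat diet without limit. The comparison took the arrays titled HF+CR_1 to HF+CR_3 against those titled LF_1 to LF_3, which are 6 of the 18 arrays of the series. It asks how far restriction on a high-fat diet left the liver like that of unrestricted low-fat mice, and what differed.

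All mice were male C57BL/6J, an inbred laboratory strain, were housed singly, and were 62 weeks old when the liver was taken, after a regimen that began at 5 weeks. HF+CR mice were given a diet with 60% fat at 30% calorie restriction. Their ration was set each week from the intake of HF mice, which ate the 60% fat diet without limit, and so was not matched to what LF mice ate. LF+CR mice were given a diet with 10% fat at 30% restriction of the LF intake, and LF mice ate the 10% fat diet without limit. HF+Ex and LF+Ex mice ate the HF and the LF diet without limit and had a running wheel. HF+CR and LF thus differ both in the diet and in the amount, and these cannot be told apart from this pair of groups alone. Each array held liver RNA of another mouse, with 3 mice in each group. The sources used here do not state the hour or the feeding state at sampling.

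The liver makes cholesterol from acetyl-CoA through mevalonate, isoprenoid and sterol intermediates, and the sterol-regulated transcription factor encoded by Srebf2 switches on the genes of this route when cell sterol is low. The related factor encoded by Srebf1 drives fatty acid synthesis when insulin is high, while the fatty acid receptor encoded by Ppara switches on oxidation in peroxisomes and microsomes. Fatty livers raise genes of lipid droplet coats and lipid uptake. In mice the pulsed growth hormone secretion of males holds a male pattern of liver expression, with steroid enzymes and transporters that females express little.

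Promoters of 5 genes of cholesterol synthesis are shown, since this list held more genes that differed between HF+CR and LF livers than any other list examined. The sequences are the bases up to the start of the gene from RefSeq on GRCm38.p6, 5′ to 3′ on the strand of the gene, and lie at chr13:119690101-119690350 on the plus strand (Hmgcs1), chr13:8885356-8885605 on the plus strand (Idi1), chr5:4104698-4104947 on the minus strand (Cyp51), chr8:64733579-64733828 on the minus strand (Msmo1) and chrX:72918271-72918520 on the plus strand (Nsdhl). Capitals mark CCAAT on either strand (CCAAT or ATTGG) and, in Hmgcs1 and Nsdhl, the sterol element core TCANCCNAC.
Hmgcs1: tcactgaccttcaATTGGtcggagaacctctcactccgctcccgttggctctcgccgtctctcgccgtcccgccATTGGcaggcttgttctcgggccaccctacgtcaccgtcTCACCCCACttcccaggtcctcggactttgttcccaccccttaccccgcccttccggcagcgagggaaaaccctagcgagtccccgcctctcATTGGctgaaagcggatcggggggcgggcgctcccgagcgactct
Idi1: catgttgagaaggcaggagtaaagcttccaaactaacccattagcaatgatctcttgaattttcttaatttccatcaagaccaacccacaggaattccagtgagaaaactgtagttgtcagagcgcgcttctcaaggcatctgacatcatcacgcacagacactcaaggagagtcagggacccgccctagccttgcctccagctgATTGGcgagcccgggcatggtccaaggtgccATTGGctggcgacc
Cyp51: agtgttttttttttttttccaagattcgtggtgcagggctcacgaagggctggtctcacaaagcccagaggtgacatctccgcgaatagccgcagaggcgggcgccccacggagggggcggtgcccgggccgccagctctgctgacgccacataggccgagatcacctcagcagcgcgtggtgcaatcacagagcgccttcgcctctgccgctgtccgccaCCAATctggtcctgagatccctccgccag
Msmo1: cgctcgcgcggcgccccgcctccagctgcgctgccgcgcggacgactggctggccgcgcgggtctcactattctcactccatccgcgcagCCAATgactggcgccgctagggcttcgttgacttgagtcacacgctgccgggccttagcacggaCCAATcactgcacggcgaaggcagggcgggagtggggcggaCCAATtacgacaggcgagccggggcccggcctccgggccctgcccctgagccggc
Nsdhl: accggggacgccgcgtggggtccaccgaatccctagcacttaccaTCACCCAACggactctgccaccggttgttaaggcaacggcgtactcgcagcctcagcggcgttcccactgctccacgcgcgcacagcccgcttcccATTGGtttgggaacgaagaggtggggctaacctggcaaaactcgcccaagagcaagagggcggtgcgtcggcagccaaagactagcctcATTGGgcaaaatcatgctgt
The motifs did not overlap each other in these sequences. CCAAT, the box bound by the nuclear factor NF-Y, was found on either strand in 14 of the 14 genes of cholesterol synthesis with a listed promoter. It was found in 11 of 15 peroxisomal and microsomal genes (73.3%) and in 21 of 26 endoplasmic reticulum chaperone genes (80.8%). Of all genes with a listed promoter, tested here or not, 10133 of 27025 held it (37.5%). TCANCCNAC was found in 2 of the 14 (14.3%), in Hmgcs1 137 bases and in Nsdhl 205 bases before the start, and in 740 of the 27025 (2.74%). A match describes the letters only.

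Values are intensities per probe set in arbitrary units on a linear scale, as the authors deposited them, and they are compared between arrays for 1 gene at a time. Array medians lay between 104.87 and 118.35, with HF+CR 1 the highest, and a gene under about the 40th percentile of its array (88.22 to 97.574) is called at background here. No hepatocyte marker passed the test in HF+CR against LF, and the 10 tested summed to between 110162.6 and 113314.1 in HF+CR livers and to between 104693.6 and 111561.0 in LF livers. LF 1 carried pancreatic enzyme transcripts: Clps, which encodes colipase, read 50.1, 47.4 and 50.3 in HF+CR livers and 221.0, 50.5 and 53.1 in LF livers. The clock difference, log2 Arntl minus log2 Dbp, was -3.5, -3.87 and -2.13 in HF+CR livers and -1.88, -3.42 and -4.03 in LF livers, so that HF+CR 3 and LF 1 stood apart from their groups. Counts of genes that passed are also given without such arrays for the main results, and those settings were chosen after the data were seen.

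HF+CR livers differed from LF livers in 227 of 14198 genes tested (1.6%), of which 120 were higher (0.845%) and 107 lower (0.754%), by limma with Benjamini-Hochberg adjustment at a threshold of 0.05. Of the 227 genes, 36 differed by more than 1 on the log2 scale, 22 of them higher and 14 lower. In all 227 the HF+CR and LF arrays did not overlap, which held for 17.3% of all genes tested. Where non-overlap is given below for a gene that passed, it thus adds no support to the call. The median size of the difference was 0.49 among the 227 and 0.077 among all genes tested, on the scale of log2 intensity plus 16. On this scale 1839 genes had an unadjusted p under 0.05. The other comparisons of the same fit called 128 genes in HF against LF (0.902%, with 0.627% higher and 0.275% lower), 791 in LF+CR against LF (5.57%, with 2.3% higher and 3.27% lower), 864 in HF+CR against HF (6.09%) and 1269 in HF+CR against LF+CR (8.94%). HF+CR, HF and LF+CR are all set against the same LF arrays in the comparisons with LF, so these counts stand side by side and were not tested against each other. The count for HF+CR against LF was 101 without HF+CR 1, 138 without HF+CR 2, 102 without LF 1 and 151 without LF 3. It was 67 without the 4 arrays that carried pancreatic transcripts (LF 1, LF+CR 1, LF+Ex 3 and HF+Ex 1) and 96 without the 4 arrays with a shifted clock (LF 1, HF+CR 3, LF+CR 2 and LF+Ex 3).

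**Figure D1:**
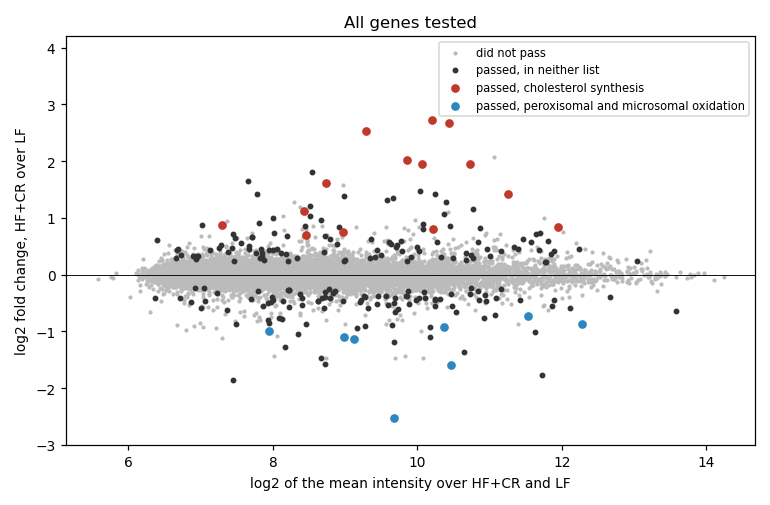
Log2 fold change of HF+CR over LF (y axis) against log2 of the mean intensity over both groups (x axis) for the 14198 genes tested, with genes that passed drawn dark and those of cholesterol synthesis and of peroxisomal and microsomal oxidation in colour. The cholesterol genes that passed lie above 0 and reach 2.73, and the peroxisomal and microsomal genes that passed lie below 0 and reach -2.52.

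Likeness was read from intervals, since a p that misses the threshold does not show that values are alike. For 12626 genes (88.9%) the 95% interval of the HF+CR minus LF difference lay within 0.5 of 0 on the log2 scale. With a narrower margin of 0.25 this held for 6103 genes (43.0%), and with a margin of 1 for 13943 (98.2%). Of the 12626 genes within 0.5, 43 had also passed the test, so that they differed by a small amount. For 1388 genes (9.78%) the test was not passed and the interval reached beyond 0.5, so that these 3 arrays a group do not settle either likeness or difference. The standard errors behind these intervals had a median of 0.0853 over the genes.

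Whole arrays were also set against each other by the root mean square of the log2 differences over all genes tested. Pairs of an HF+CR and an LF array differed by 0.247 on average (0.199 to 0.311 over 9 pairs). Pairs within HF+CR differed by 0.202 (0.164 to 0.232) and pairs within LF by 0.216 (0.198 to 0.244), so that the ranges within and between the groups overlapped. HF and LF arrays differed by 0.256 (0.212 to 0.314) and LF+CR and LF arrays by 0.298 (0.248 to 0.358). HF+CR arrays differed from HF arrays by 0.288 (0.243 to 0.377) and from LF+CR arrays by 0.317 (0.246 to 0.4). On the first principal component over all arrays, which held 26.6% of the variance, HF+CR arrays lay at -14.5, -10.3 and -8.7 and LF arrays at -6.3, -7.7 and -7.9, without overlap. On the second, which held 18.3% of the variance, HF+CR arrays lay at -6.8, -4.6 and 1.6 and LF arrays at 2.4, 0.4 and 1.8.

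Genes of the diet and of the restriction response were then taken from comparisons between other groups. These called 1.72% of genes in HF+Ex against LF+Ex and 9.3% in LF+CR against LF+Ex. Their group means use neither HF+CR nor LF arrays, but the spread of each gene was estimated from all 18 arrays together. The choice is thus not fully independent of HF+CR against LF. The 150 genes that were higher in HF+Ex than in LF+Ex livers (1.06% of genes tested), by a median of 0.47 on the log2 scale, had a median of 0.12 in HF+CR against LF, where the median of all genes was 0.02. Of these, 112 leaned up and 38 down, 24 rose (16%, beside 0.845% of all genes) and 7 fell (4.67%), and 94 had their interval within 0.5 (62.7%, beside 88.9%). In HF against LF the same genes had a median of 0.37. The 94 genes lower in HF+Ex than in LF+Ex (0.662%), by a median of -0.52 there, had a median of -0.11 in HF+CR against LF and of -0.26 in HF against LF. Among them 2 rose (2.13%) and 9 fell (9.57%), and 64 had their interval within 0.5 (68.1%).

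The restriction response was taken in the same way from LF+CR against LF+Ex, which also differ in the running wheel. The 593 genes higher there (4.18%), by a median of 0.36, had a median of 0.07 in HF+CR against LF and of 0.28 in LF+CR against LF. In HF+CR against LF 50 of them rose (8.43%) and 9 fell (1.52%), and 459 had their interval within 0.5 (77.4%). The 728 genes lower there (5.13%), by a median of -0.42, had a median of -0.05 in HF+CR against LF and of -0.34 in LF+CR against LF. Of these 10 rose (1.37%) and 35 fell (4.81%), and 560 had their interval within 0.5 (76.9%). Among the 100 genes with the smallest p, the 46 higher ones had a median of 0.53 and the 54 lower ones a median of 0.04, with the sign turned.

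**Figure D2:**
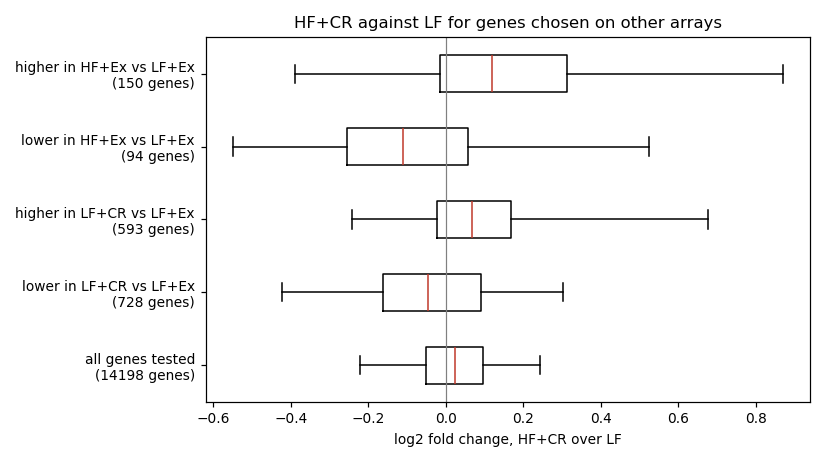
Log2 fold change of HF+CR over LF (x axis) for genes chosen in comparisons of other groups and for all genes tested, with the median in red, the box at the quartiles and whiskers at the 5th and 95th percentiles. The medians are 0.12, -0.11, 0.07 and -0.05 for the chosen genes and 0.02 for all genes, and each box spans values on both sides of 0.

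Genes of cholesterol synthesis were higher in HF+CR than in LF livers. Of the 17 genes tested 14 rose and none fell, beside 0.845% and 0.754% of all genes, and the median log2 fold change was 1.11, beside 0.02. A further 3 genes of the list were not analysed here. All 17 had a positive difference, and in 15 the 3 HF+CR arrays lay above the 3 LF arrays, beside 10.3% of all genes. Summed over the 17 genes, intensity was between 27202.8 and 31578.8 in HF+CR livers and between 12220.0 and 15046.3 in LF livers. The count of genes that rose was 11 without the 4 arrays with pancreatic transcripts and 11 without the 4 arrays with a shifted clock.

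Among the early steps, Hmgcs1, the synthase that makes the precursor of mevalonate, read 2953.4, 3742.7 and 3926.4 in HF+CR livers, against 1697.5, 1050.5 and 1265.0 in LF livers. The HF+CR arrays all lay above the LF arrays, and the log2 fold change was 1.41 (SE 0.233, adjusted p = 0.0045). Idi1, which isomerises the first isoprenoid unit, read 1823.2, 2086.9 and 2222.0 in HF+CR livers, against 253.5, 222.0 and 446.4 in LF livers. This was the largest rise among named genes tested, with a log2 fold change of 2.73 (SE 0.266, adjusted p = 0.000114) or 6.63-fold on the scale of intensity plus 16. Fdps, which builds farnesyl diphosphate, read 2522.1, 2866.0 and 2680.8 in HF+CR livers, against 688.3, 566.2 and 825.6 in LF livers, again without overlap (1.95, SE 0.272, adjusted p = 0.00139).

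Of the enzymes that make and trim the sterol ring, Sqle, the squalene epoxidase, read 861.5, 1253.1 and 1123.2 in HF+CR livers, against 153.0, 131.9 and 244.9 in LF livers. The lowest HF+CR array was far above the highest LF array, and the log2 fold change was 2.53 (SE 0.305, adjusted p = 0.000377). Cyp51, a sterol demethylase, read 1302.7, 1621.9 and 1560.1 in HF+CR livers, against 392.1, 268.4 and 431.6 in LF livers (2.01, SE 0.23, adjusted p = 0.000294). Msmo1, which starts removal of the next methyl groups, read 2063.0, 2596.1 and 2546.2 in HF+CR livers, against 288.0, 294.4 and 560.7 in LF livers, a 6.35-fold difference on the same scale (2.67, SE 0.242, adjusted p = 7.24e-05). In both genes the groups stood apart. Nsdhl, which acts with Msmo1, averaged 1701 ± 98.5 in HF+CR livers and 433.3 ± 84.3 in LF livers (SD, n = 3 each), a rise of 1.95 (adjusted p = 0.000376). Dhcr7, the last reductase of the route, averaged 647.7 ± 94.9 in HF+CR livers and 202.0 ± 40.3 in LF livers, a rise of 1.61 (adjusted p = 0.000344).

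The other members, named to account for the whole list, moved less. Lss, Mvk, Sc5d, Fdft1, Hsd17b7 and Pmvk rose by 1.11, 0.87, 0.83, 0.80, 0.75 and 0.69 on the log2 scale, in that order, with adjusted p between 7.24e-05 and 0.0135. Hsd17b7 lost its call without HF+CR 2, HF+CR 3 or LF 2 (adjusted p between 0.051 and 0.0615). Ebp, Mvd and Tm7sf2 had differences of 0.28, 0.21 and 0.19 and did not pass (adjusted p = 0.137, 0.432 and 0.672).

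**Figure D3:**
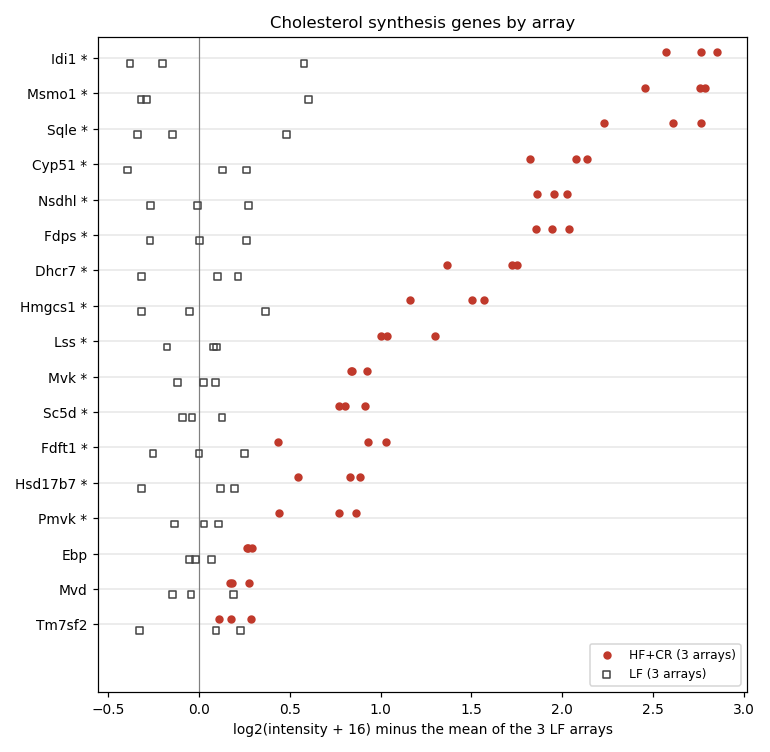
Log2 of intensity plus 16 minus the mean of the 3 LF arrays (x axis) for the 17 genes of cholesterol synthesis tested, with HF+CR arrays as filled circles above and LF arrays as open squares below, and a star at genes that passed. The HF+CR points lie to the right of the LF points in 15 genes, and Idi1, Msmo1 and Sqle lie farthest out.

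Set against the groups that share its diet or its restriction, HF+CR lay above HF in this list, and few genes passed against LF+CR. Intervals against LF+CR were not counted, so likeness to that group was not settled. Against HF 15 of the 17 rose and none fell, with a median of 0.92 (3.54% of all genes rose and 2.55% fell). Against LF+CR 1 rose and 1 fell, with a median of 0.05 (5.62% and 3.32% of all genes). Sqle averaged 1079 in HF+CR, 299.4 in HF, 1095 in LF+CR and 176.6 in LF livers, and the difference from LF+CR was -0.04 (adjusted p = 0.959). Idi1 averaged 2044 in HF+CR, 603.6 in HF, 1839 in LF+CR and 307.3 in LF livers. Beside HF+CR against LF with 14 rises and a median of 1.11, HF against LF had 1 rise and a median of 0.28, and LF+CR against LF had 14 rises and a median of 1.2.

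Of 17 genes of sterol sensing, uptake and export tested, Srebf2 and Insig1 rose and none fell, beside 0.845% and 0.754% of all genes. Intervals lay within 0.5 in 10 of the 17, beside 88.9% of all genes. Srebf2, the transcription factor of the route, read 328.8, 294.3 and 322.3 in HF+CR livers, against 234.2, 247.9 and 230.6 in LF livers (0.38, SE 0.0606, adjusted p = 0.0035). Insig1, which holds that factor in the endoplasmic reticulum when sterol is plentiful, read 583.2, 526.2 and 582.4 in HF+CR livers, against 343.9, 343.1 and 474.2 in LF livers (0.54, SE 0.105, adjusted p = 0.014). The groups of both genes did not overlap. The call of Insig1 ended without HF+CR 1, HF+CR 3, LF 1 or LF 2, with adjusted p between 0.0546 and 0.0859. The sterol exporter Abca1 had a difference of 0.24 and did not pass (adjusted p = 0.154).

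Fatty acid synthesis split within its list. Of 20 genes tested 5 rose (Acly, Fasn, Srebf1, Acsl3 and Slc25a1) and Scd1 fell, beside 0.845% and 0.754% of all genes, with a median of 0.07. Intervals lay within 0.5 of 0 in 10 of the 20, beside 88.9% of all genes. Fasn, the fatty acid synthase, read 1664.1, 1805.0 and 1823.4 in HF+CR livers, against 550.1, 604.9 and 811.4 in LF livers. The groups did not overlap, and Fasn rose by 1.42 on the log2 scale (SE 0.188, adjusted p = 0.000885). Acly, which makes cytosolic acetyl-CoA from citrate, read 1678.8, 2026.4 and 1687.2 in HF+CR livers, against 801.4, 891.1 and 844.0 in LF livers, again without overlap (1.07, SE 0.143, adjusted p = 0.000984). Srebf1 read 1703.6, 2213.5 and 1837.0 in HF+CR livers, against 582.7, 924.3 and 874.8 in LF livers (1.27, SE 0.195, adjusted p = 0.00294). Acsl3, a long-chain acyl-CoA synthetase, rose by 0.73 (adjusted p = 0.00443) and the citrate carrier Slc25a1 by 0.25 (adjusted p = 0.0277, and between 0.0523 and 0.0906 without HF+CR 1, HF+CR 2, HF+CR 3, LF 2 or LF 3).

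Scd1, Acaca and Elovl6 did not rise with Fasn. Scd1, the desaturase that makes oleate from stearate, read 8805.4, 9964.8 and 9838.3 in HF+CR livers, against 15477.0, 14004.2 and 15387.8 in LF livers, and fell by 0.65 on the log2 scale (SE 0.108, adjusted p = 0.00455). A second Scd1 probe set had a difference of -1.22. Acaca, the carboxylase that feeds Fasn, averaged 580.9 ± 57.6 in HF+CR livers and 569.7 ± 57.1 in LF livers, and its 95% interval ran from -0.43 to 0.48 (0.03, adjusted p = 0.983). The elongase Elovl6 averaged 563.6 ± 129 in HF+CR livers and 655.7 ± 186 in LF livers (-0.2, adjusted p = 0.829), with an interval from -0.76 to 0.36 that is too wide to call it alike.

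LF+CR livers differed from both in this list. Against LF+CR 12 of the 20 genes fell in HF+CR and 1 rose, with a median of -0.63 (3.32% of all genes fell and 5.62% rose). Against HF 5 rose and none fell, with a median of 0.2 (3.54% and 2.55% of all genes). Fasn averaged 1764 in HF+CR, 1180 in HF, 3947 in LF+CR and 655.5 in LF livers, and the HF+CR minus LF+CR difference was -1.13 (adjusted p = 0.00178). Elovl6 averaged 2421 in LF+CR livers, a difference of -2.03 for HF+CR (adjusted p = 0.000259), and Acaca 1635, a difference of -1.44 (adjusted p = 0.000724). Srebf1 averaged 1918 in HF+CR and 1872 in LF+CR livers (0.04, adjusted p = 0.923). Set beside LF, HF had 1 rise and a median of -0.08 in the list and LF+CR had 14 rises and a median of 0.83. Of the 12 genes of triglyceride synthesis and lipolysis tested in HF+CR against LF, none passed. Intervals lay within 0.5 in 9 of the 12, beside 88.9% of all genes.

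Of 20 genes of peroxisomal and microsomal fatty acid oxidation tested 8 fell in HF+CR against LF livers, beside 0.754% of all genes, and none rose. Over the 20 genes the median was -0.6, and the difference was negative in 19. In 13 the 3 HF+CR arrays lay below the 3 LF arrays, beside 6.94% of all genes. Their summed intensity was between 50478.6 and 54674.9 in HF+CR livers and between 62754.6 and 72073.1 in LF livers. The count of genes that fell was 4 without HF+CR 1, 4 without LF 1, 5 without LF 3, 4 without the arrays with pancreatic transcripts and 3 without those with a shifted clock.

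Acyl-CoA thioesterases, which release free fatty acids from acyl-CoA, included Acot3 and Acot1, the members with the largest differences. Acot3, a peroxisomal member, read 191.9, 364.6 and 168.1 in HF+CR livers, against 1543.2, 1355.3 and 1275.1 in LF livers. This was the largest fall among named genes tested, with a log2 fold change of -2.52 (SE 0.352, adjusted p = 0.00139) and all HF+CR arrays far below the LF arrays. Acot1, the cytosolic member, read 545.6, 700.7 and 802.8 in HF+CR livers, against 2883.9, 1514.3 and 2012.4 in LF livers (-1.59, SE 0.36, adjusted p = 0.0359). Acot4, another peroxisomal member, read 129.1, 204.4 and 148.5 in HF+CR livers, against 390.9, 285.3 and 325.2 in LF livers (-1.0, SE 0.166, adjusted p = 0.00455). Neither overlapped between groups. The call of Acot1 ended without any 1 of HF+CR 1, HF+CR 2, HF+CR 3, LF 1 or LF 3, with adjusted p between 0.0595 and 0.173. Near-identical members of families such as Acot, Cyp4a, Cyp2b, Cyp2c, Gstm and Slc22a can share probe sequence, so that their values are uncertain as those of a single gene.

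Other members of the oxidation route that fell were Cyp4a14, Cyp4a31, Pex11a, Crat and Vnn1. Cyp4a14, a fatty acid omega-hydroxylase, read 3429.8, 3730.2 and 3370.8 in HF+CR livers, against 7286.3, 5517.6 and 6621.5 in LF livers (-0.87, SE 0.154, adjusted p = 0.00699). The Cyp4a14 call ended without LF 1 (adjusted p = 0.0504), although the groups did not overlap. Pex11a, a membrane protein of peroxisome division, read 903.8, 909.4 and 904.3 in HF+CR livers, against 1951.4, 1516.8 and 1733.1 in LF livers, with the HF+CR mice nearly equal (-0.92, SE 0.173, adjusted p = 0.012). Its call ended without HF+CR 1 or LF 1 (adjusted p between 0.0536 and 0.0691). Crat, carnitine acetyltransferase, read 288.0, 350.1 and 387.1 in HF+CR livers, against 947.1, 605.5 and 781.1 in LF livers (-1.14, SE 0.164, adjusted p = 0.00163), while its other probe sets, which were dimmer, had differences of -0.15 and -0.23. Cyp4a31 averaged 312.8 in HF+CR and 700.5 in LF livers (-1.1, adjusted p = 0.0212), and lost its call without HF+CR 1, HF+CR 3 or LF 3 (adjusted p between 0.0647 and 0.101). Vnn1, a pantetheinase, averaged 2264 in HF+CR and 3670 in LF livers (-0.74, adjusted p = 0.0345, and between 0.0598 and 0.111 without HF+CR 1, LF 1, LF 2 or LF 3).

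Of the 12 members that did not pass, 11 had negative differences. The bifunctional enzyme Ehhadh had a difference of -0.63 (adjusted p = 0.0892), Acot2 of -0.75 (adjusted p = 0.0606) and Acaa1b of -0.29 (adjusted p = 0.0509). Ppara, the receptor itself, was the 1 member with a positive difference (0.14, adjusted p = 0.904). Fabp1, the liver fatty acid binding protein, had a difference of -0.03 with its interval within 0.5. Of 18 genes of mitochondrial fatty acid oxidation and ketogenesis tested 1 fell, beside 0.754% of all genes, and 17 had their interval within 0.5, beside 88.9%. The 1 was Slc25a20, the carnitine-acylcarnitine carrier, which fell by 0.42 (adjusted p = 0.0476, and between 0.0672 and 0.191 without any 1 of the 6 arrays). Cpt1a, which admits long-chain fatty acids to mitochondria, averaged 2731 in HF+CR and 3251 in LF livers (-0.24, adjusted p = 0.346). The fasting hormone Fgf21 read 118.7, 124.4 and 183.0 in HF+CR livers and 533.4, 181.7 and 174.4 in LF livers, with 1 high LF array, and did not pass (adjusted p = 0.49).

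**Figure D4:**
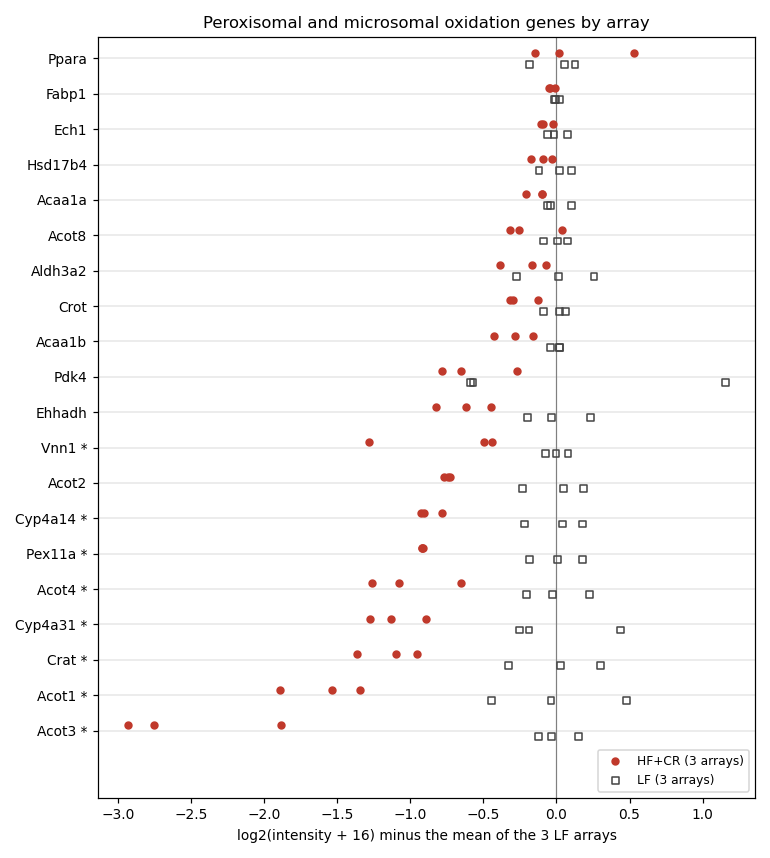
Log2 of intensity plus 16 minus the mean of the 3 LF arrays (x axis) for the 20 genes of peroxisomal and microsomal oxidation tested, with HF+CR arrays as filled circles above, LF arrays as open squares below, and a star at genes that passed. The HF+CR points lie to the left of the LF points in 13 genes, farthest for Acot3, and on both sides of 0 for Ppara.

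In the groups that share its diet or its restriction the list stood as follows. Against HF 9 of the 20 fell in HF+CR and none rose, with a median of -0.41 (2.55% of all genes fell and 3.54% rose). Against LF+CR 5 fell and 2 rose, with a median of -0.2 (3.32% and 5.62% of all genes). Acot3 averaged 241.5 in HF+CR, 866.9 in HF, 1392 in LF+CR and 1391 in LF livers, and HF+CR was lower than HF by 1.79 (log2 fold change -1.79, adjusted p = 0.00833) and lower than LF+CR (-2.44, adjusted p = 0.000583). Pex11a averaged 905.8 in HF+CR, 2203 in HF, 1138 in LF+CR and 1734 in LF livers. Beside LF, HF had no gene of the list past the test and a median of -0.03, and LF+CR had 7 falls and a median of -0.29.

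Genes of lipid droplets and steatosis fell or did not pass in HF+CR against LF livers. Of 21 genes tested 4 fell (Apoa4, Cd36, Plin5 and Fitm2), beside 0.754% of all genes, and none rose, with a median of -0.25, 6 differences positive and 15 negative. Their summed intensity was between 19952.2 and 23527.5 in HF+CR livers and between 30521.8 and 32025.6 in LF livers. Apoa4, an apolipoprotein of triglyceride-rich particles, read 1114.6, 1768.6 and 1768.5 in HF+CR livers, against 5230.5, 4640.9 and 5766.2 in LF livers (-1.76, SE 0.339, adjusted p = 0.0135). Cd36, a fatty acid uptake receptor, read 575.0, 787.7 and 846.3 in HF+CR livers, against 1697.8, 1550.3 and 1474.8 in LF livers (-1.10, SE 0.18, adjusted p = 0.00444). In both genes the highest HF+CR array was far below the lowest LF array. Plin5, a droplet coat protein at mitochondrial contacts, read 741.2, 683.7 and 971.7 in HF+CR livers, against 1736.9, 1380.2 and 1447.6 in LF livers (-0.92, SE 0.174, adjusted p = 0.0117). Fitm2, which partitions fat into droplets, averaged 506.2 ± 48.4 in HF+CR livers and 771.0 ± 73.8 in LF livers (-0.59, adjusted p = 0.0035).

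The count of 4 was 2 without HF+CR 1, 2 without LF 1 and 0 without the 4 arrays with pancreatic transcripts, which leave LF with 2. Cd36 and Fitm2 thus also lost their calls without those 4 arrays. The call of Apoa4 ended without HF+CR 1, LF 1 or LF 3 (adjusted p between 0.054 and 0.0779) and that of Plin5 without HF+CR 1, HF+CR 2 or LF 1 (adjusted p between 0.0598 and 0.0691).

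Droplet and fat storage genes that were high in HF livers were low in HF+CR livers. Cidea, a droplet fusion protein of fat tissue and fatty liver, read 70.3, 67.5 and 87.5 in HF+CR livers and 108.0, 106.7 and 72.7 in LF livers, close to background in both (adjusted p = 0.848). In HF livers it read 1479.4, 536.0 and 904.3, at least 9.44-fold over HF+CR (adjusted p = 0.000339). Plin4, a droplet coat protein, averaged 189.4 ± 10.1 in HF+CR, 529.1 in HF, 202.4 in LF+CR and 234.8 ± 13.1 in LF livers, and HF+CR was below HF (-1.38, adjusted p = 0.000212) and not past the test against LF (-0.29, adjusted p = 0.471). Pparg, the adipogenic receptor, averaged 189.5 in HF+CR, 421.8 in HF, 325.9 in LF+CR and 216.9 in LF livers, with differences of -1.11 from HF (adjusted p = 0.00205) and -0.21 from LF (adjusted p = 0.683). Mogat1, a monoacylglycerol acyltransferase, averaged 119.2 in HF+CR, 267.9 in HF and 134.8 in LF livers, and against LF its interval lay within 0.5 (-0.15). Cidec, a relative of Cidea, averaged 70.8 in HF+CR and 359.4 in HF livers, at least 3.47-fold over HF+CR (adjusted p = 0.00492). Over the list, HF+CR against HF had 10 falls and no rise with a median of -0.67 (2.55% of all genes fell and 3.54% rose). Beside LF the HF group had 3 rises and a median of 0.23, and LF+CR 4 falls and a median of -0.15.

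**Figure D5:**
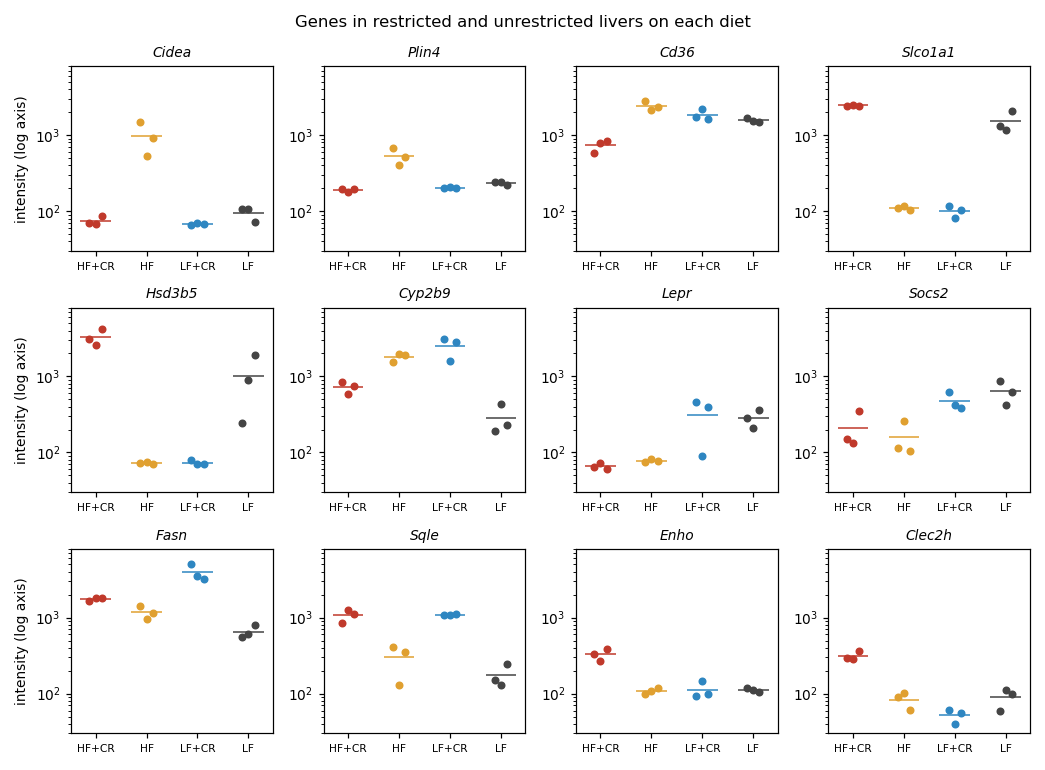
Intensity on a log axis (y axis) of 12 genes in HF+CR, HF, LF+CR and LF livers, with a point for each of 3 arrays and a line at the mean. Cidea and Plin4 are highest in HF livers, Slco1a1 and Hsd3b5 are high in HF+CR and LF livers, Fasn is highest in LF+CR livers, and Enho and Clec2h are high in HF+CR livers.

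Genes that male mice express more than females were higher in HF+CR than in HF and LF+CR livers, and most did not pass against LF. Of 20 male-biased genes tested in HF+CR against LF, Susd4 rose and none fell, beside 0.845% and 0.754% of all genes. The median was 0.32, with 15 differences positive and 5 negative. In 11 the HF+CR arrays lay above the LF arrays and in 1 below, beside 10.3% and 6.94% of all genes. Summed intensity was between 61447.7 and 69176.1 in HF+CR livers and between 50007.3 and 58239.0 in LF livers. Only 3 had their interval within 0.5, so that gene by gene neither likeness nor difference was settled for most. Against LF+CR 18 of the 20 rose in HF+CR and none fell, with a median of 1.61 (5.62% of all genes rose and 3.32% fell). Against HF 11 rose and none fell, with a median of 0.88 (3.54% and 2.55% of all genes). Beside LF, HF had 5 falls and a median of -0.61, and LF+CR had 16 falls and a median of -1.13. Slco1a1, an organic anion transporter, read 2412.8, 2512.1 and 2424.9 in HF+CR livers and 1301.7, 1163.3 and 2103.0 in LF livers. Its LF arrays spread more than its HF+CR arrays, all of which were higher, and the difference did not pass (0.73, SE 0.375, adjusted p = 0.445). It averaged 110.4 in HF and 101.1 in LF+CR livers, and HF+CR was higher than both (4.29, adjusted p = 7.72e-05, and 4.41, adjusted p = 8.49e-06).

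Hsd3b5, a male-specific steroid reductase of the mouse, read 3052.6, 2582.2 and 4177.2 in HF+CR livers, against 243.1, 884.1 and 1935.6 in LF livers. The lowest HF+CR array lay above the highest LF array, but the LF mice differed widely among themselves and the gene did not pass (2.07, SE 0.546, adjusted p = 0.0762). It passed without LF 3 (adjusted p = 0.0144). At background in HF and LF+CR livers, it was at least 35.2-fold higher in HF+CR than in HF (adjusted p = 0.000141) and at least 34.6-fold higher than in LF+CR (adjusted p = 3.8e-05). Elovl3, a fatty acid elongase, averaged 2889 ± 1040 in HF+CR, 1064 in HF, 188.3 in LF+CR and 2847 ± 384 in LF livers, with an interval against LF from -1.02 to 0.96. Susd4, a complement regulator, read 542.0, 448.1 and 637.7 in HF+CR livers, against 240.0, 257.8 and 312.7 in LF livers, without overlap (0.96, SE 0.196, adjusted p = 0.0195). Its call ended without HF+CR 1, HF+CR 3, LF 1 or LF 2 (adjusted p between 0.0604 and 0.105). Egfr, the epidermal growth factor receptor, averaged 2676 in HF+CR, 506.7 in HF, 1011 in LF+CR and 1717 in LF livers, and HF+CR was higher than HF (2.4, adjusted p = 0.0011) and not past the test against LF (0.63, adjusted p = 0.468).

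Female-biased genes were split in HF+CR against LF, with 10 differences positive and 8 negative and a median of 0.03. Of 18 tested Cyp2b9 rose and Acot3, given above, fell, beside 0.845% and 0.754% of all genes. In 3 the HF+CR arrays lay above the LF arrays and in 5 below, beside 10.3% and 6.94% of all genes. Only 4 had their interval within 0.5, so that for most neither likeness nor difference was settled. Against HF 5 fell and 1 rose (median -0.42), beside 2.55% and 3.54% of all genes. Against LF+CR 7 fell and 1 rose (median -0.78), beside 3.32% and 5.62%. Cyp2b9, a steroid hydroxylase, read 849.2, 583.3 and 752.6 in HF+CR livers, against 188.6, 431.9 and 227.0 in LF livers (1.39, SE 0.268, adjusted p = 0.0135). It averaged 1819 in HF and 2482 in LF+CR livers, so that HF+CR lay between these and LF and was lower than both (-1.31, adjusted p = 0.0103, and -1.71, adjusted p = 0.00108). The call against LF ended without HF+CR 1, HF+CR 3, LF 1 or LF 3 (adjusted p between 0.0513 and 0.083), and the call against HF without HF+CR 2 (adjusted p = 0.0558). Its relative Cyp2b13 was close to background in HF+CR and LF livers, at means of 84.03 and 76.18, and averaged 362.7 in HF livers, at least 3.61-fold over HF+CR (adjusted p = 0.00401). Slc22a27, a transporter, averaged 105.0 in HF+CR, 579.0 in HF, 879.5 in LF+CR and 184.0 in LF livers (-0.63 against LF, adjusted p = 0.329). Gsta2, a glutathione transferase, averaged 797.6 in HF+CR, 2339 in HF, 1940 in LF+CR and 784.9 in LF livers (0.06 against LF, adjusted p = 0.972). Both were lower in HF+CR than in HF (-2.27, adjusted p = 0.000307, and -1.53, adjusted p = 0.00853).

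Of 19 genes of growth hormone and insulin-like growth factor signalling tested, Socs2 fell and none rose, beside 0.754% and 0.845% of all genes. Intervals lay within 0.5 in 12 of the 19, beside 88.9% of all genes. Socs2, which growth hormone induces and which then damps its receptor's signal, read 152.2, 132.9 and 352.3 in HF+CR livers, against 855.8, 424.6 and 623.9 in LF livers, with no overlap (-1.58, SE 0.357, adjusted p = 0.0359). Another probe set of the gene had a difference of -1.61, and 3 more had differences of -0.05, -0.12 and -0.28. With the mean of its probe sets Socs2 did not pass (-0.59, adjusted p = 0.0518). It averaged 160.3 in HF and 476.4 in LF+CR livers, and HF+CR was not past the test against HF (0.36, adjusted p = 0.545). The leptin receptor Lepr, which is in none of the lists, read 63.9, 72.6 and 60.3 in HF+CR livers, against 280.2, 211.4 and 364.3 in LF livers (-1.86, SE 0.391, adjusted p = 0.0237). Other Lepr probe sets had differences of -1.54 and, with means of 115.7 in HF+CR and 162.1 in LF livers, of -0.43. With the mean of the probe sets Lepr did not pass (-0.95, adjusted p = 0.0579). Lepr read 74.0, 80.9 and 77.6 in HF livers and 455.9, 90.3 and 397.9 in LF+CR livers, so that LF+CR 2 stood with the high-fat groups. The call of Socs2 ended without HF+CR 1, HF+CR 2, LF 1 or LF 3 (adjusted p between 0.0979 and 0.173) and that of Lepr without any 1 of HF+CR 1, HF+CR 2, HF+CR 3, LF 1 or LF 3 (adjusted p between 0.065 and 0.0968). Igf1, the growth factor that growth hormone induces in liver, averaged 4513 ± 259 in HF+CR livers and 4467 ± 35.3 in LF livers, with an interval from -0.17 to 0.2.

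Some genes stood apart in HF+CR livers from each of HF, LF+CR and LF. Enho, which encodes the secreted peptide adropin, read 331.4, 270.1 and 380.9 in HF+CR livers, against 120.5, 110.4 and 104.4 in LF livers (1.42, SE 0.155, adjusted p = 0.00028). It averaged 108.4 in HF and 112.8 in LF+CR livers, and HF+CR was higher than each in this probe set (1.46, adjusted p = 0.000144, and 1.43, adjusted p = 4.95e-05). Other Enho probe sets had differences of 1.3 and 0.24 from LF. Clec2h, a C-type lectin-like membrane protein, read 294.9, 283.1 and 360.0 in HF+CR livers, against 58.7, 113.4 and 100.5 in LF livers, which lay around background (1.65, SE 0.205, adjusted p = 0.000489). It also rose against HF, at a mean of 83.68 (1.74, adjusted p = 0.000294) and against LF+CR, at a mean of 51.81 (2.28, adjusted p = 1.26e-05). Other Clec2h probe sets had differences of 1.28 and 0.6 from LF. Cyp2c38, a drug and fatty acid monooxygenase of the mouse, averaged 490.1 ± 118 in HF+CR, 1554 in HF, 1770 in LF+CR and 1148 ± 355 in LF livers. HF+CR was lower than LF (-1.18, adjusted p = 0.0028), HF (-1.65, adjusted p = 0.000169) and LF+CR (-1.84, adjusted p = 2.05e-05).

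Cela1, a pancreatic elastase, read 1617.4, 1233.0 and 1827.2 in HF+CR livers, against 655.6, 465.9 and 526.6 in LF livers (1.47, SE 0.304, adjusted p = 0.02), and was also higher than in HF and LF+CR livers (1.81, adjusted p = 0.0036, and 1.99, adjusted p = 0.000911). Other pancreatic transcripts did not go with it. Cpb1, a carboxypeptidase, read 46.6, 41.5 and 45.2 in HF+CR livers and 448.0, 44.3 and 43.0 in LF livers, and Prss2, a trypsinogen, 64.1, 61.4 and 54.8 in HF+CR livers and 631.9, 64.1 and 70.1 in LF livers. Of the 16 pancreatic markers tested Cela1 alone passed, 14 had negative differences, and the markers summed to between 2836.7 and 3571.0 in HF+CR livers and between 2073.5 and 5481.3 in LF livers. The call of Cela1 ended without HF+CR 1, HF+CR 3, LF 2 or LF 3 (adjusted p between 0.0684 and 0.0845).

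Further genes with large differences belong to no list. Hectd2os, a long noncoding RNA that RefSeq places over the end of Hectd2, read 544.7, 645.7 and 568.5 in HF+CR livers, against 100.6, 186.7 and 198.9 in LF livers (1.81, SE 0.253, adjusted p = 0.00139). Whether the probes read the noncoding RNA or its neighbour was not tested. Pltp, the phospholipid transfer protein, read 668.2, 1142.8 and 857.2 in HF+CR livers, against 2357.5, 1807.5 and 2763.8 in LF livers (-1.37, SE 0.221, adjusted p = 0.00384). Rab30, a small GTPase of the Golgi, averaged 159.8 ± 16.4 in HF+CR livers and 418.5 ± 106 in LF livers (-1.28, adjusted p = 0.00139), and Acnat2, a peroxisomal acyltransferase, 206.6 ± 12.6 in HF+CR livers and 610.2 ± 159 in LF livers (-1.47, adjusted p = 0.00297). The arrays of the groups did not overlap in any of these, which the rule for naming them required.

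Of 29 genes of endoplasmic reticulum chaperones tested 5 rose in HF+CR livers (Hsp90b1, Calr, Pdia3, Pdia6 and Sdf2l1), beside 0.845% of all genes, and none fell, with a median of 0.23, 27 differences positive and 2 negative, and in 13 the HF+CR arrays lay above the LF arrays (10.3% of all genes). Their summed intensity was between 48334.4 and 53729.9 in HF+CR livers and between 41047.6 and 42599.9 in LF livers. Calr, a lectin chaperone, read 3958.8, 4283.1 and 4249.9 in HF+CR livers, against 2365.6, 2677.7 and 2457.6 in LF livers (0.73, SE 0.101, adjusted p = 0.00124). Pdia6, a disulfide isomerase, read 1839.3, 1840.3 and 1773.2 in HF+CR livers, against 890.9, 1026.8 and 1074.4 in LF livers (0.86, SE 0.14, adjusted p = 0.00422). Sdf2l1 rose by 0.85 (adjusted p = 0.0298), Pdia3 by 0.48 (adjusted p = 0.0108) and Hsp90b1 by 0.35 (adjusted p = 0.0388, and between 0.0595 and 0.173 without any 1 of HF+CR 1, HF+CR 2, HF+CR 3, LF 1 or LF 2). Hspa5, the main luminal chaperone, averaged 4997 in HF+CR and 3982 in LF livers and did not pass (0.33, adjusted p = 0.34). Against HF 4 of the list rose (median 0.2), beside 3.54% of all genes. Against LF+CR 1 rose and 2 fell (median 0.08), beside 5.62% and 3.32% of all genes. The count of 5 was 2 without HF+CR 1 or LF 1 and 3 without HF+CR 2, without HF+CR 3, without the arrays with pancreatic transcripts or without those with a shifted clock. Sdf2l1 lost its call without any 1 of HF+CR 1, HF+CR 2, HF+CR 3, LF 1 or LF 3 (adjusted p between 0.054 and 0.157), and Pdia3 without HF+CR 1 or LF 1 (adjusted p between 0.0568 and 0.0619).

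Most other metabolic lists held few or no differences. Among 27 genes of oxidative phosphorylation none passed and 27 had their interval within 0.5. None of 14 genes of glycolysis passed either, and 11 had their interval within 0.5. In gluconeogenesis and fasting 1 of 18 genes rose, in bile acid metabolism 1 of 20 rose, in the oxidative stress response 1 of 24 rose, and in xenobiotic metabolism 2 of 18 fell. Of all genes 0.845% rose and 0.754% fell. Intervals lay within 0.5 in 10, 12, 14 and 7 genes of these lists, in that order, beside 88.9% of all genes. For many of their members likeness was thus not settled. Tat, the tyrosine aminotransferase, averaged 4335 ± 728 in HF+CR livers and 2849 ± 58.8 in LF livers (0.59, adjusted p = 0.0195). Mat1a, which makes S-adenosylmethionine, averaged 5602 ± 232 in HF+CR livers and 7374 ± 564 in LF livers (-0.39, adjusted p = 0.00985). These were the 2 of 28 genes of amino acid and urea metabolism that passed, and 21 of the 28 had their interval within 0.5. Hsd3b7, a bile acid enzyme, averaged 5601 in HF+CR and 4086 in LF livers (0.45, adjusted p = 0.0456), Gstm6, a glutathione transferase, 1052 in HF+CR and 693.5 in LF livers (0.59, adjusted p = 0.0253), and Nr1i2, the pregnane X receptor, 235.2 in HF+CR and 332.0 in LF livers (-0.47, adjusted p = 0.0359). Another Nr1i2 probe set had a difference of -0.18, and with the mean of the probe sets Nr1i2 did not pass (-0.33, adjusted p = 0.0558).

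Several of these calls ended when a single array was left out. Tat lost its call without HF+CR 1, HF+CR 2, LF 1, LF 2 or LF 3 (adjusted p between 0.0538 and 0.101), Mat1a without LF 3 (adjusted p = 0.0512), Hsd3b7 and Nr1i2 without HF+CR 1, HF+CR 3, LF 1, LF 2 or LF 3 (between 0.0746 and 0.153, and between 0.0633 and 0.126), and Gstm6 without HF+CR 1, HF+CR 3, LF 1 or LF 2 (between 0.051 and 0.141). The rate-limiting enzymes of neighbouring routes did not pass: Cyp7a1 of bile acid synthesis had a difference of -0.35 (adjusted p = 0.823), Pck1 of gluconeogenesis -0.2 (adjusted p = 0.667) and G6pc of glucose release -0.02 (adjusted p = 0.992). Of 19 clock genes none passed, and their differences ran from -0.48 to 0.6, with 0.11 for Per2 and -0.11 for Dbp. Only 5 of the 19 had their interval within 0.5, beside 88.9% of all genes, so that likeness was not settled for most.

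Among immune and inflammatory lists 1 gene passed, Lbp. Intervals lay within 0.5 in 8 of 22 interferon-response, 1 of 12 resident macrophage, 5 of 11 recruited macrophage and 10 of 24 acute phase genes. This held for 88.9% of all genes, so that likeness was not settled for most genes of these 4 lists. In bulk RNA fewer cells of a type and less RNA per cell cannot be told apart. None of 22 interferon-response genes passed, but 19 had negative differences, with a median of -0.22, and they summed to between 6325.8 and 6535.5 in HF+CR livers and between 6345.7 and 8766.5 in LF livers. Against HF 4 of them fell in HF+CR, beside 2.55% of all genes, with a median of -0.4. Of 12 markers of resident macrophages (Kupffer cells) none passed and 11 were lower, and they summed to between 8067.3 and 9033.2 in HF+CR livers and between 8800.1 and 12585.2 in LF livers, with overlap. The 11 markers of recruited macrophages summed to between 2519.6 and 2899.7 in HF+CR livers and between 2958.6 and 3627.7 in LF livers, without overlap, and none passed. In 4 of the 12 resident and 3 of the 11 recruited markers the HF+CR arrays lay below the LF arrays, and in none above. Of all genes 6.94% lay below and 10.3% above. Lgals1, a galectin, averaged 612 in HF+CR, 3114 in HF and 1080 in LF livers, lower in HF+CR than in HF (-2.3, adjusted p = 0.000892) and not past the test against LF (-0.79, adjusted p = 0.287). Of 24 acute phase genes Lbp, which binds lipopolysaccharide, fell, averaging 983.8 in HF+CR and 1455 in LF livers (-0.55, adjusted p = 0.0386, and between 0.0939 and 0.18 without HF+CR 1, HF+CR 3, LF 1 or LF 2). Saa1 and Lcn2, which rise in inflammation, had differences of 0.15 and -0.81 and did not pass (adjusted p = 0.972 and 0.723).

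Of 20 stellate cell and matrix genes tested Lamb1, a laminin chain, rose, averaging 263.8 in HF+CR and 196.5 in LF livers (0.39, adjusted p = 0.0482), and 18 differences were positive with a median of 0.16. The stellate cell markers summed to between 8065.0 and 9036.3 in HF+CR livers and between 7025.0 and 7931.4 in LF livers. Alas2, the first heme enzyme of red cells, averaged 1189 in HF+CR and 891.2 in LF livers (0.41, adjusted p = 0.0411), and the other two erythroid markers tested did not pass. With the mean of the probe sets Lamb1 (0.18, adjusted p = 0.162), Lbp (-0.35, adjusted p = 0.172) and Map1lc3a (-0.32, adjusted p = 0.0503) did not pass. Lamb1 lost its call without HF+CR 1, HF+CR 3, LF 1, LF 2 or LF 3 (adjusted p between 0.074 and 0.195) and Alas2 without HF+CR 1, HF+CR 2, HF+CR 3, LF 1 or LF 3 (between 0.0629 and 0.184). Of 22 lysosomal and autophagy genes Map1lc3a fell (-0.42, adjusted p = 0.0393, and between 0.0759 and 0.179 without HF+CR 1, HF+CR 2, LF 1 or LF 2). None passed among 12 sinusoidal endothelial markers, 11 of which had their interval within 0.5, and none among 22 heat shock, 16 proliferation, 7 MHC class II, 8 T and NK cell, 6 B and plasma cell, 5 neutrophil, 4 adipocyte, 3 cholangiocyte and 3 muscle genes tested. From heat shock to muscle, intervals lay within 0.5 in 15, 10, 2, 6, 4, 3, 2, 1 and 0 genes, in that order, beside 88.9% of all genes. Of all genes tested 0.845% rose and 0.754% fell.

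Of 49 genes listed as most telling for diet and restriction in liver, with earlier results of these data known, 42 were tested. In HF+CR against LF 12 of the 42 passed and 30 did not, while 1.6% of all genes passed.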

How the data were processed

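Per the labels' protocols, total liver RNA was extracted with Trizol and hybridised as biotinylated cRNA to Affymetrix Mouse Genome 430 2.0 arrays. The authors deposited linear intensities, 1 per probe set, and how these were summarised and scaled is not given in the sources used here. Array medians differed by 0.153 on the log2 scale, so no further scaling was done, and log2 of intensity plus 16 was analysed.

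Of 45101 probe sets, 64 were controls, and 34945 carried 1 gene symbol, 932 several and 9160 none. A gene was read from its probe set with the highest mean (18193 genes) and tested if it exceeded the 40th percentile on 3 or more arrays (14198 genes). Group means were estimated from the 18 arrays together in limma 3.58.1 (R 4.3.3), with 12 residual and 3.61 prior degrees of freedom. P-values were adjusted by Benjamini-Hochberg over the 14198 genes, at a threshold of 0.05. Fold changes are on the scale of log2 intensity plus 16, which understates those of dim genes. "At least" folds set the brighter group against the higher of the dim gene's own signal and the array's 40th percentile, from log2 means of the deposited intensities. Precision is limited by the number of arrays and, for dim genes, by signal over background.

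The groups compared, the 38 lists (25 pathways and 13 cell types, 687 genes) and the 49 single genes were chosen with earlier results of these data known. Genes named are the 12 largest rises and 12 largest falls with groups apart, up to 4 members that passed of each list, the 49 single genes, and the 5 largest rises and falls of the comparisons of other groups. Genes named beyond this were chosen after their values were seen. Alternatives were other normalizations, offsets of 1 and 64, filters, probe set averaging, variance models, array weights, the 6 arrays alone, a replicate block and each array left out, and the same scripts were tested on simulated data.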

Additional observations from a re-analysis of the deposited data

Results flagged for a closer look

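Probe sets without a single gene symbol were left out of the gene comparison. When 29336 probe sets were tested together, 4855 of those above background were of this kind, and 39 of the 4855 (0.803%) passed in HF+CR against LF, 19 higher and 20 lower. The probe set 1443147_at read 85.0, 177.7 and 76.9 in HF+CR livers, against 949.5, 799.1 and 657.8 in LF livers (log2 fold change -2.73, adjusted p = 0.00383). The probe set 1428859_at read 1113.9, 1046.7 and 1104.9 in HF+CR livers, against 438.5, 513.6 and 518.0 in LF livers (1.13, adjusted p = 6.28e-05).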

How the results depend on the processing

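Of the 85 named genes, none of the 50 that passed changed direction under any alternative run, and 19 of them passed under each. With the mean of the probe sets 6 named calls ended. Without the 4 arrays with pancreatic transcripts 27 ended, and without the 4 arrays with a shifted clock 20. The 227 genes that passed (120 higher, 107 lower) became 541 (301 and 240) with array weights, 126 (66 and 60) from the 6 arrays alone, 67 (44 and 23) without the 4 arrays with pancreatic transcripts, 353 (176 and 177) without LF+CR 2, HF 1 and HF+Ex 3, the 3 extreme arrays of the first component, and 96 (48 and 48) without the 4 arrays with a shifted clock. With each array left out in turn the counts ran from 101 to 195, from 59 to 96 higher and from 32 to 99 lower, and genes with an interval within 0.5 from 11951 to 12373 (6103 with a margin of 0.25). In the same fits genes that passed ran from 13 to 14 in cholesterol synthesis, 4 to 5 in fatty acid synthesis, 2 to 4 in lipid droplets, 4 to 8 in peroxisomal oxidation and 2 to 4 in chaperones. Fatty acid synthesis had 3 rises from the 6 arrays alone. Without the pancreatic arrays lipid droplets had 0 falls, peroxisomal oxidation 4 and chaperones 3 rises, and without the shifted clock arrays peroxisomal oxidation had 3 falls and chaperones 3 rises. The medians of genes chosen on HF+Ex against LF+Ex ran from 0.06 to 0.17 (higher there) and from -0.18 to -0.09 (lower there, -0.06 with a clock covariate). Those chosen on LF+CR against LF+Ex ran from 0.05 to 0.08 (0.10 without the pancreatic arrays and 0.53 among the 100 genes with the smallest p) and from -0.07 to -0.03 (0.04 among the 100, where fewer genes are used). The cause of these shifts was not tested. Arrays of HF and LF+CR were not left out in turn. The replicate block gave 178 genes (95 higher, 83 lower). Deviations from the group mean had r = -0.177, -0.161 and 0.124 between HF+CR and LF arrays of equal number. Between arrays of unequal number r ran from -0.24 to 0.318. With 3 arrays a group these values cannot decide whether the numbers pair the mice. Signal over background limits genes near the 40th percentile of an array.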

Other observations

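Other genes with large differences fell outside the rule for naming and were chosen after their values were seen. Mid1ip1, which promotes assembly of acetyl-CoA carboxylase, read 1198.1, 1262.4 and 1073.8 in HF+CR livers, against 417.4, 451.3 and 488.8 in LF livers (log2 fold change 1.35, adjusted p = 0.000283), and averaged 788.0 in HF and 1121 in LF+CR livers. F11, coagulation factor XI, read 1110.6, 1009.8 and 1136.4 in HF+CR livers, against 298.2, 468.4 and 562.0 in LF livers (1.31, adjusted p = 0.00347). It averaged 454.2 in HF and 421.3 in LF+CR livers, and HF+CR was higher than both (1.26, adjusted p = 0.00296, and 1.33, adjusted p = 0.000976). Slc22a7, an organic anion transporter, read 545.8, 466.5 and 511.5 in HF+CR livers, against 128.3, 307.2 and 235.0 in LF livers (1.2, adjusted p = 0.0426, and between 0.0847 and 0.191 without any 1 of HF+CR 1, HF+CR 2, HF+CR 3, LF 1 or LF 3). Hsd17b6, a steroid and retinoid dehydrogenase, read 2678.2, 2462.0 and 2094.4 in HF+CR livers, against 991.6, 1037.9 and 1183.1 in LF livers (1.16, adjusted p = 0.0135, and between 0.0528 and 0.0719 without HF+CR 1, HF+CR 2 or LF 1). Rdh11, a retinal reductase, read 439.2, 560.9 and 489.4 in HF+CR livers, against 260.2, 201.7 and 243.5 in LF livers (1.03, adjusted p = 0.00351).

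Among the falls, Alas1, the first heme enzyme of liver, read 2031.3, 1996.4 and 2104.7 in HF+CR livers, against 2965.6, 4124.0 and 5847.4 in LF livers (-1.02, adjusted p = 0.0444), with the LF mice far apart. Its call ended without HF+CR 1, HF+CR 2, HF+CR 3, LF 2 or LF 3 (adjusted p between 0.0934 and 0.166). Smim22, a small membrane protein, read 236.0, 217.5 and 167.4 in HF+CR livers, against 460.4, 485.7 and 388.8 in LF livers (-1.05, adjusted p = 0.000339). Hectd2, the neighbour of Hectd2os, read 168.3, 178.7 and 172.2 in HF+CR livers, against 85.5, 88.2 and 87.6 in LF livers, at background in the LF group (0.87, SE 0.0926, adjusted p = 0.000214). It averaged 121.2 in HF and 76.71 in LF+CR livers, and HF+CR was higher than both (0.47, adjusted p = 0.00899, and 1.03, adjusted p = 1.26e-05).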
